A study of Rattus norvegicus with 28 samples.

Results

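The genes described here encode the nuclear subunits of the mitochondrial respiratory chain and of ATP synthase, with the factors that assemble complex I, in whole hippocampus of adult male Sprague-Dawley rats weighing 350 to 400 g. They were chosen by symbol: every array probe whose transcript accession matched a rat gene named Nduf, Cox4 to Cox8, Atp5, Uqcr or Sdha to Sdhd, with a signal well above background on all arrays of at least 1 of 5 groups. That left 82 of 83 such genes on the arrays, among 10220 named genes kept in all. Cox8c did not pass, and 2 more symbols, Cox6c-ps1 and Ndufa10l1, are described apart because their names mark them as copies of other genes. The 82 genes were read by 103 kept probes, of which 95 were well above background on all 14 arrays. A gene was assigned to a complex by its symbol prefix alone, whichever complex its protein joins. On that basis they comprised 32 subunits of complex I, 7 complex I assembly factors (Ndufaf genes) and 4 subunits of complex II. The rest were 8 of complex III, 15 of complex IV, 15 of complex V and Atp5if1, the inhibitor protein of complex V.

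Complexes I and II take electrons from NADH and succinate, complex III passes them on to cytochrome c, and complex IV hands them to oxygen. Complexes I, III and IV pump protons across the inner mitochondrial membrane, and complex V lets them flow back to make ATP. Most subunits are encoded in the nucleus, and only those were asked about here. Failing mitochondrial respiration is a well-known early event in injured brain tissue.

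The groups were Sham rats (n = 2), rats with severe parasagittal fluid-percussion traumatic brain injury (TBI, n = 3), and rats with the same injury that received imipramine (TBI+Imipramine, n = 3), the serotonin reuptake inhibitor fluoxetine (TBI+Prozac, n = 3) or the serotonin reuptake inhibitor sertraline (TBI+Zoloft, n = 3) 1 h after injury. Imipramine is a tricyclic antidepressant. Per the study's methods, Sham rats were anesthetized and prepared but not injured, and the rats were given an antidepressant or vehicle; which vehicle each untreated rat received is not given in the labels. All tissue was taken 24 h after injury. The design asks whether injury changed these transcripts and whether a drug moved them after injury.

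A level is the log2 of a probe's signal over its array's 75th percentile of probes above background, so that 0 is that percentile, and where a gene had several probes the brightest was used. Between 14676 and 18196 of 30367 probes were above background on an array, fewest on TBI replicate 1, where 56 of the 82 genes had their lowest level of all 14 arrays. Relative to each array's median over all kept probes, the median level of the 82 genes was 4.63 on that array and lay between 4.49 and 4.84 on the other 13. The scanner headers put both Sham arrays on 1 slide and the 3 TBI arrays and TBI+Prozac replicate 1 on another. The other 8 arrays were on the third slide. Both Sham arrays were also scanned on a different day from all others. Slide, scan day and injury therefore cannot be told apart in a comparison with Sham. In TBI+Imipramine vs TBI and TBI+Zoloft vs TBI, slide and drug cannot be told apart except through TBI+Prozac replicate 1. Adjusted p-values are from limma with Benjamini-Hochberg adjustment over all 17322 kept probes, and a gene is called changed where this is under 0.05.

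After injury, 4 of the 82 genes differed from Sham, or 4.88%, against 16.6% of all kept probes. Ndufa11 of complex I rose, 1 gene against 8.30% of all probes called higher. Uqcrq of complex III and Cox6b2 and Cox7c of complex IV fell, 3 genes against 8.32% called lower. Uqcrq and Cox7c were each read by 1 dim probe, with median levels over the arrays of -4.71 and -3.87. The median level over the 82 genes was 2.58. Whether these 2 probes read the main transcript of their gene was not tested. No subunit of complex II or V and no assembly factor passed the test. The median difference over the 82 genes was -0.02 on the log2 scale, beside 0.00 over all kept probes, and without regard to adjustment 5 of the 82 had a p under 0.05, against 30.8% of all probes. Groups did not overlap for 12 of the 82, against 42.2% of all probes. In whole tissue, fewer cells of a type and less RNA per cell cannot be told apart.

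**Figure D1:**
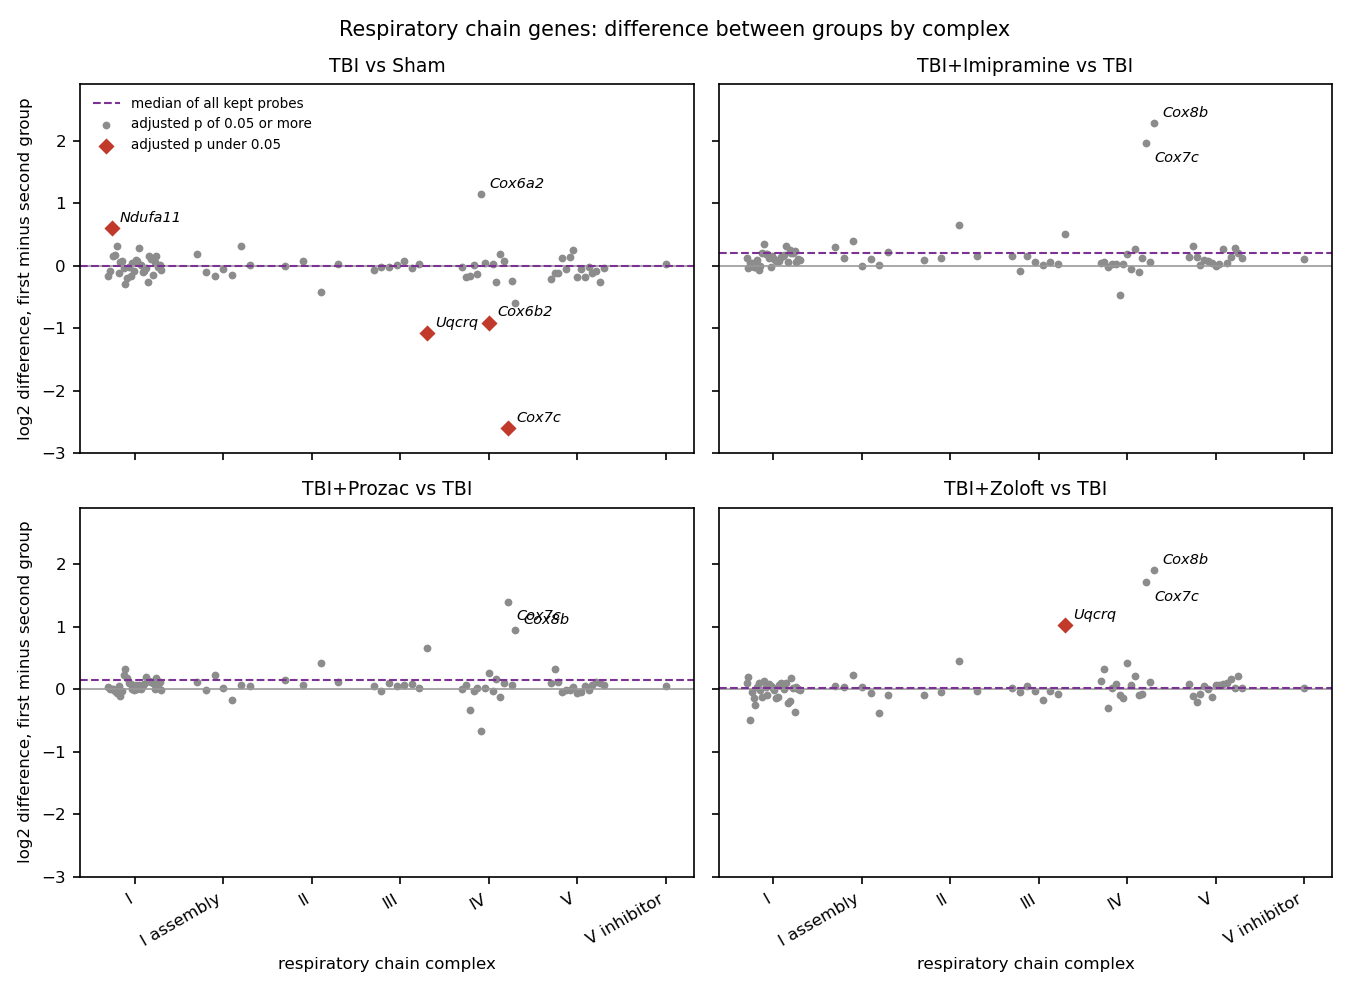
Log2 difference between group means (y axis) for each of the 82 genes by complex (x axis), in TBI vs Sham and each drug group vs TBI; each point is a gene, red diamonds have a limma adjusted p under 0.05, and the dashed line is the median of all kept probes. The 4 diamonds in TBI vs Sham are Ndufa11 at 0.60, Cox6b2 at -0.91, Uqcrq at -1.08 and Cox7c at -2.60, and the only other diamond is Uqcrq at 1.02 in TBI+Zoloft vs TBI.

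The start regions of the 4 genes that passed are printed because respiratory chain genes are known for promoters with sites for nuclear respiratory factor 1 and ETS factors in place of a TATA box, and these show how far the 4 share such letters. Each line is the 250 bases before the RefSeq start on the GRCr8 build, read 5′ to 3′ on the gene's own strand, with capitals where a searched motif matched.
Ndufa11 (chr9:1637364-1637613, plus strand): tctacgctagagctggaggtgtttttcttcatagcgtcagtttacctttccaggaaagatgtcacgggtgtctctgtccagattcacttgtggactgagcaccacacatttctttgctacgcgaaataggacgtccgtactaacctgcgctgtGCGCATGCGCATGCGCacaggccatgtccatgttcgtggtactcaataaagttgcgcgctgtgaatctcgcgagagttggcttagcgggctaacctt
Uqcrq (chr10:38089979-38090228, minus strand): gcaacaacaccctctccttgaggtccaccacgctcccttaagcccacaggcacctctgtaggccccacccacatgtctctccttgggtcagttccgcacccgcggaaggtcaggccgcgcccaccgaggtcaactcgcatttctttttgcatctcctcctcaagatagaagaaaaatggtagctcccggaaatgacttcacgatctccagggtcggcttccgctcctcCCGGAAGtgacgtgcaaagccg
Cox6b2 (chr1:78122621-78122870, plus strand): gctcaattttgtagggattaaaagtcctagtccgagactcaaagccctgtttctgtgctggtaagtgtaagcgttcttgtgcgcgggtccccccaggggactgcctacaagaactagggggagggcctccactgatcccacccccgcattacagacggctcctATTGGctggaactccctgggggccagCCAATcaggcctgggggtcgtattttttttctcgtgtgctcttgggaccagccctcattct
Cox7c (chr2:18579171-18579420, minus strand): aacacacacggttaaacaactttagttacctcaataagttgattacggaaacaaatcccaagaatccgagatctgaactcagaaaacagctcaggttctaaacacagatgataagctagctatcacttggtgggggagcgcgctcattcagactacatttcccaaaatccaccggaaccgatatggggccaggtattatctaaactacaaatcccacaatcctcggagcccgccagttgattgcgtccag

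The letters searched, on both strands, were GCGCATG (nuclear respiratory factor 1 type), CCGGAAG (ETS type), CCAAT and TATAAA, none of which holds another. The Ndufa11 window held GCGCATG 4 times over both strands, in 1 run of bases from -97 to -82 relative to the start. Each match overlapped the next, which lay on the opposite strand. Uqcrq held 1 CCGGAAG at -22 to -16, Cox6b2 held CCAAT 2 times, on opposite strands, and the Cox7c window held none of the 4. The Uqcrq window lies inside the gene's annotated span. RefSeq windows were matched for 73 of the 82 genes, and the other 9 had no match in the table used. GCGCATG stood in 13 of the 73, or 17.8%, against 3.26% of all 33469 windows of that length. CCGGAAG stood in 22, or 30.1%, against 7.27%. CCAAT stood in 23, or 31.5%, against 34%, and TATAAA in 5, or 6.85%, against 12.9%. A match is a run of letters and was not read as a bound site.

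Ndufa11 is an accessory subunit in the membrane arm of complex I. Its level was 1.76 and 1.52 in Sham and 2.10, 2.30 and 2.32 in TBI. All 3 TBI arrays lay above both Sham arrays. The difference was 0.60 ± 0.16 (SE) on the log2 scale, or 1.52-fold higher, with a limma adjusted p of 0.025. It did not pass without Sham replicate 1 (0.72, limma adjusted p = 0.061), Sham replicate 2 (0.49, 0.20), TBI replicate 2 (0.57, 0.072) or TBI replicate 3 (0.56, 0.056). Among the other 31 subunits of complex I the group means differed by -0.29 to 0.31 and none passed the test, with 16 of the 32 above and 16 below the median of all probes. Ndufab1, the mitochondrial acyl carrier protein that is also a complex I subunit, had the largest negative difference of the complex. Its level was 1.98 and 1.93 in Sham and 1.48, 1.89 and 1.61 in TBI, which did not overlap, but the difference of -0.29 did not pass (limma adjusted p = 0.20). Ndufa9 had no value on Sham replicate 2, where its spot carried an outlier flag, and was fitted without it.

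None of the 7 assembly factors of complex I passed. Ndufaf7, a methyltransferase of complex I assembly, had the largest difference of these at 0.32 (limma adjusted p = 0.44), and its levels overlapped. Its second probe, whose difference was -0.71, ran the other way. Of 17 genes with several kept probes, 8 had probes of opposite sign in this comparison, and in none of the 8 did 1 probe pass and another not.

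Complex II is the succinate dehydrogenase that also works in the tricarboxylic acid cycle. Sdhc, a membrane anchor of the complex, had the level 1.233 and 1.001 in Sham and 0.29, 0.84 and 0.96 in TBI. The groups did not overlap, though TBI replicate 3 lay close to Sham replicate 2, and the difference of -0.42 ± 0.20 (SE) did not pass (limma adjusted p = 0.17). With each array centred on the median of its kept probes the difference was -0.46 ± 0.12 (SE) and passed (limma adjusted p = 0.017), as it did under 3 other scalings (-0.45 to -0.42, limma adjusted p = 0.020 to 0.023). Sdha, Sdhb and Sdhd, the other members of the complex, did not pass, and the median difference over the 4 was 0.01.

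Uqcrq, a small subunit of complex III also known as the ubiquinone-binding protein, had the level -4.28 and -4.25 in Sham and -5.86, -5.05 and -5.11 in TBI. Every TBI array lay below both Sham arrays, and TBI replicate 1 was the lowest and was not well above background for this probe. The difference was -1.08 ± 0.25 (SE), with a limma adjusted p of 0.013. It did not pass without Sham replicate 1 (-1.09, limma adjusted p = 0.072) or Sham replicate 2 (-1.07, 0.080). The other 7 complex III genes, among them the core proteins Uqcrc1 and Uqcrc2 and the Rieske protein Uqcrfs1, differed by at most 0.07 in size and did not pass.

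Cox6b2 is the copy of the Cox6b subunit of complex IV best known from testis. Its level was 0.52 and 0.48 in Sham and -0.63, -0.35 and -0.25 in TBI, so that the lowest Sham array lay well above the highest TBI array. The difference was -0.91 ± 0.14 (SE), or 1.88-fold lower, with a limma adjusted p of 0.0014, the smallest of the 82 genes, and it passed whichever array was left out. Cox6b1, the widely expressed copy, did not pass: its level was 3.55 and 3.36 in Sham and 3.30, 3.59 and 3.57 in TBI.

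Cox7c, a small subunit of complex IV, had the level -2.49 and -3.74 in Sham and -6.45, -5.15 and -5.53 in TBI. The groups were far apart, but the 2 Sham arrays also differed by more than 1 on the log2 scale, and 1 of the 3 TBI arrays was not well above background. The difference was -2.60 ± 0.62 (SE), with a limma adjusted p of 0.014. It did not pass without Sham replicate 1 (-1.97, limma adjusted p = 0.14).

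**Figure D2:**
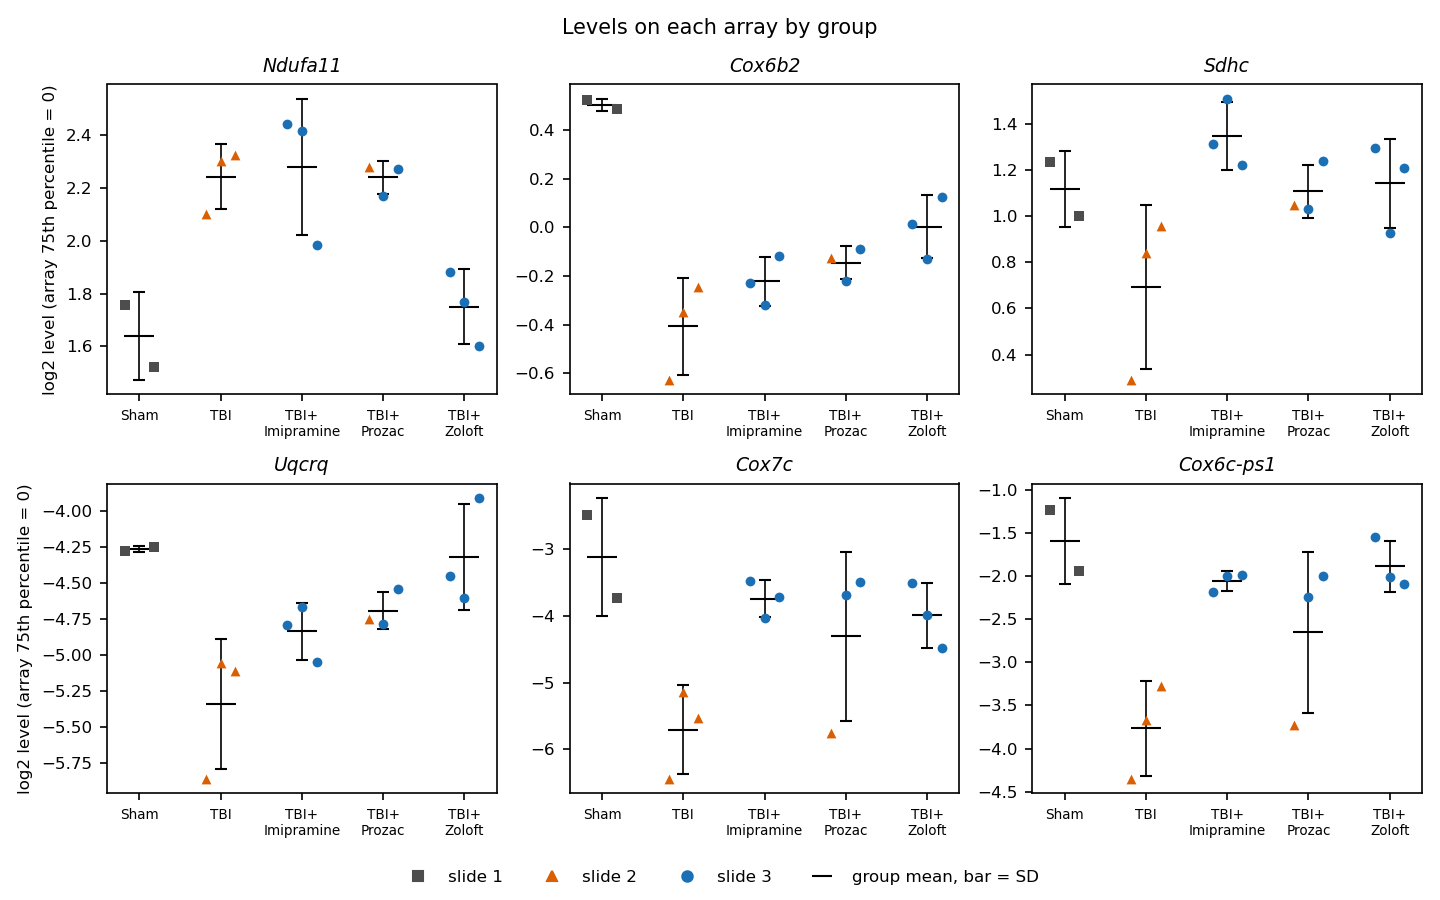
Log2 level on each array (y axis, 0 is the array's 75th percentile) by group (x axis) for Ndufa11, Cox6b2, Sdhc, Uqcrq, Cox7c and Cox6c-ps1; points are arrays, their shape and colour the slide, and bars the group mean and SD. For Cox7c and Cox6c-ps1 the only drug-treated array on the slide of the TBI arrays, TBI+Prozac replicate 1, sits with the TBI arrays at -5.76 and -3.72.

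On TBI+Prozac replicate 1, the drug-treated array on the slide of the TBI arrays, the level of Cox7c was -5.76, within the TBI range of -6.45 to -5.15. On the other 8 drug-treated arrays, all on the third slide, it lay between -4.48 and -3.48. With the slide as a block, which rests on that 1 array, the difference between TBI+Prozac and TBI was -0.05 ± 0.54 (SE). Without the block it was 1.40 (limma adjusted p = 0.44), and that between TBI+Zoloft and TBI was 1.72 ± 0.55 (SE, limma adjusted p = 0.15). Cox7c did not pass in TBI+Imipramine vs TBI either. The part of the slide in the Cox7c levels was not tested, and against Sham slide and injury cannot be told apart.

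Cox6c-ps1, a transcribed pseudogene of the complex IV subunit Cox6c per RefSeq, also had a level on TBI+Prozac replicate 1 within the TBI range. Its level was -1.23 and -1.94 in Sham, -4.36, -3.67 and -3.27 in TBI, -3.72 on TBI+Prozac replicate 1, and between -2.24 and -1.55 on the other 8 drug-treated arrays. It passed in TBI vs Sham (-2.18 ± 0.45 SE, limma adjusted p = 0.0069), but not without Sham replicate 1 (-1.82, limma adjusted p = 0.075). Against TBI it was higher in TBI+Imipramine (1.71 ± 0.40 SE, limma adjusted p = 0.044) and TBI+Zoloft (1.88 ± 0.40 SE, limma adjusted p = 0.043). With the slide as a block these differences were 0.10 ± 0.49 and 0.27 ± 0.49 (SE), and neither passed. Cox6c itself was 4.47 and 4.25 in Sham and 3.99, 4.48 and 4.68 in TBI, which overlapped. Ndufa10l1, a copy of the complex I subunit Ndufa10 that RefSeq lists as protein-coding, was 2.04 and 2.07 in Sham and between 1.85 and 2.25 in TBI, and did not pass in any of the 4 comparisons.

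None of the 15 complex V genes passed after injury. Of these, 12 lay below the median of all probes, with a median difference of -0.09, and the whole range was -0.26 to 0.26. The largest difference was in Atp5pf, the coupling factor of the stalk, at -0.26 (limma adjusted p = 0.33). Its level was 3.57 and 3.37 in Sham and 2.93, 3.27 and 3.43 in TBI, which overlapped. Atp5if1, the inhibitor of the enzyme, differed by 0.03.

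Complex IV has subunits with paired isoforms, a common form and a form known from muscle, heart or lung. No gene of the pairs passed the test in any of the 4 comparisons of TBI with Sham and of the drug groups with TBI. Among the common forms Cox4i1 differed by -0.01 after injury, Cox6a1 by -0.14, Cox7a2 by -0.26 and Cox8a by -0.24. The second probe of Cox7a2 ran the other way, at 0.38 (limma adjusted p = 0.22). Among the rarer forms Cox4i2, which is known to respond to oxygen in lung, differed by -0.17. Cox6a2, the heart and muscle form, was -2.66 and -2.35 in Sham and -1.96, -1.79 and -0.32 in TBI. These groups did not overlap, but TBI replicate 3 stood apart from the other TBI arrays. The difference of 1.15 ± 0.44 (SE) did not pass (limma adjusted p = 0.10).

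Cox8b, the muscle form of Cox8, varied most between rats of 1 group of all 82 genes, with an SD within groups of 1.61, against a median SD of 0.158 over the 82. Its level was -4.37 and -4.11 in Sham, -5.85, -4.89 and -3.75 in TBI, -1.95, -0.90 and -4.79 in TBI+Imipramine, -1.46, -5.004 and -5.20 in TBI+Prozac and -2.47, -1.75 and -4.55 in TBI+Zoloft. These 5 arrays, replicates 1 and 2 of TBI+Imipramine and of TBI+Zoloft and replicate 1 of TBI+Prozac, stood above the other 9. Ttr, the defining transcript of choroid plexus, was highest on those same 5 arrays, between 6.11 and 6.69, and lay between -2.63 and 4.86 on the other 9. Folr1, another choroid plexus transcript, was also highest on those 5, between -1.67 and 0.38, and between -5.35 and -3.19 on the other 9. These 2 were the genes of 6 on the choroid plexus list that passed the filter, and their summed scaled signal ranged from 0.586 to 29.2 in Sham, 0.662 to 28.5 in TBI, 1.78 to 104.5 in TBI+Imipramine, 0.196 to 87.5 in TBI+Prozac and 1.75 to 100.9 in TBI+Zoloft. The part of choroid plexus tissue in the Cox8b levels was not tested. Cox8b passed in no comparison of TBI with Sham or of a drug with TBI, with a difference of 2.29 ± 1.13 (SE) for TBI+Imipramine and of 1.91 ± 1.13 (SE) for TBI+Zoloft.

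**Figure D3:**
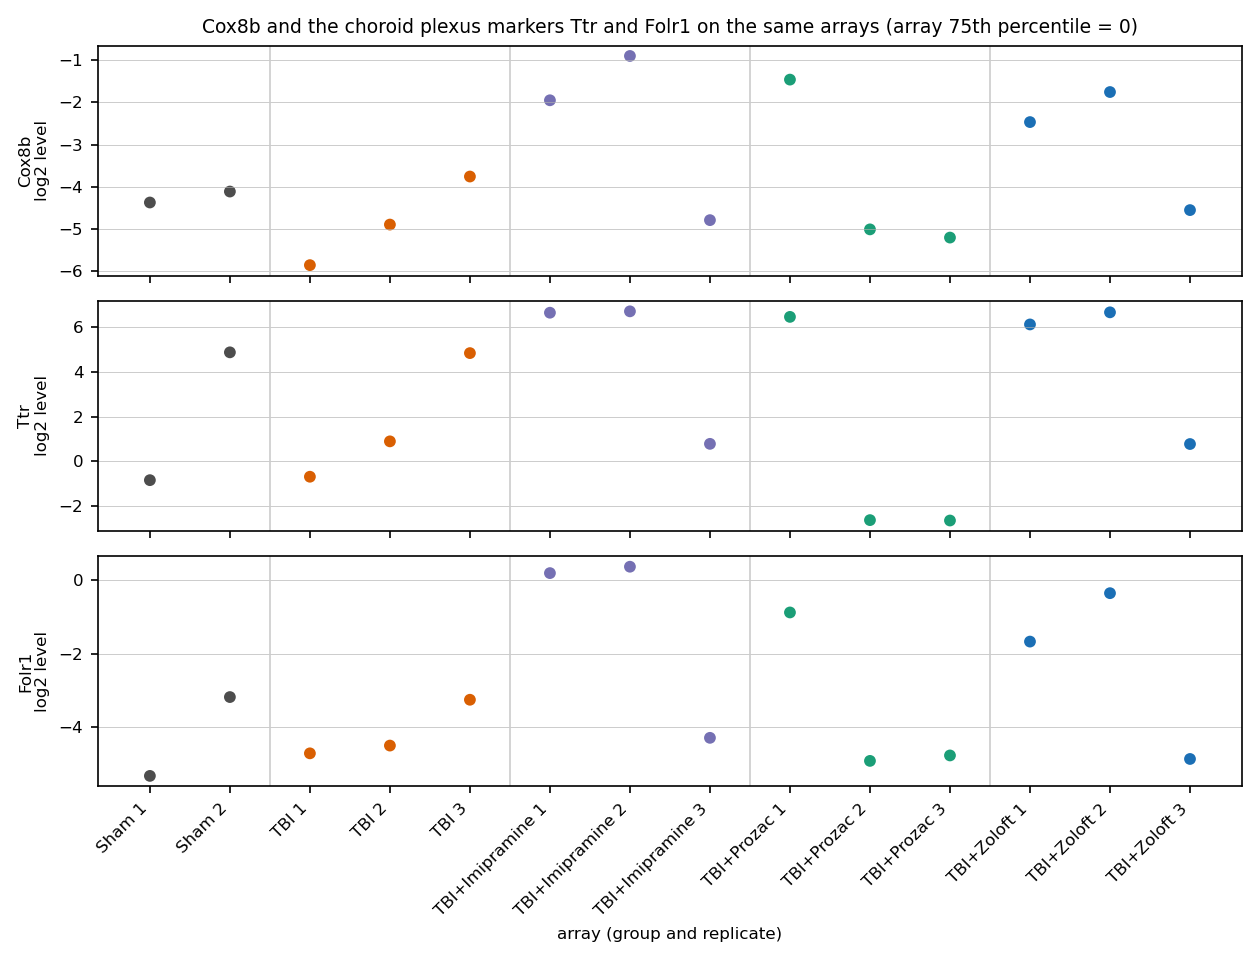
Log2 level (y axes, 0 is the array's 75th percentile) of Cox8b, Ttr and Folr1 on each of the 14 arrays (x axis), coloured by group. The 5 arrays with Cox8b at -2.47 or higher are the 5 with Ttr at 6.11 or higher and Folr1 at -1.67 or higher, and they come from 3 groups.

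After Cox8b, the widest spreads between rats were those of Cox7c, Cox6a2, Cox5a and Cox4i2 of complex IV. The assembly factors Ndufaf6 and Ndufaf7 came next, with an SD within groups of 0.40 and 0.31. Apart from Cox5a, these complex IV genes were dim, with median levels between -4.24 and -1.59. Cox5a, a subunit with no tissue isoform, was between 2.03 and 2.67 on 10 arrays and between 1.38 and 1.81 on TBI+Imipramine replicate 3, TBI+Prozac replicates 1 and 2 and TBI+Zoloft replicate 2. No group held only low or only high arrays of it among the drug-treated rats. Cox4i2 was -0.49 on TBI+Zoloft replicate 3 and between -1.97 and -1.33 on the other 13 arrays. The median SD within groups was 0.195 for complex IV and 0.224 for the assembly factors. The SD was at most 0.29 for every complex I subunit and at most 0.20 for every complex V subunit. Their median levels were also higher, at least 0.36 for complex I and 1.23 for complex V.

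**Figure D4:**
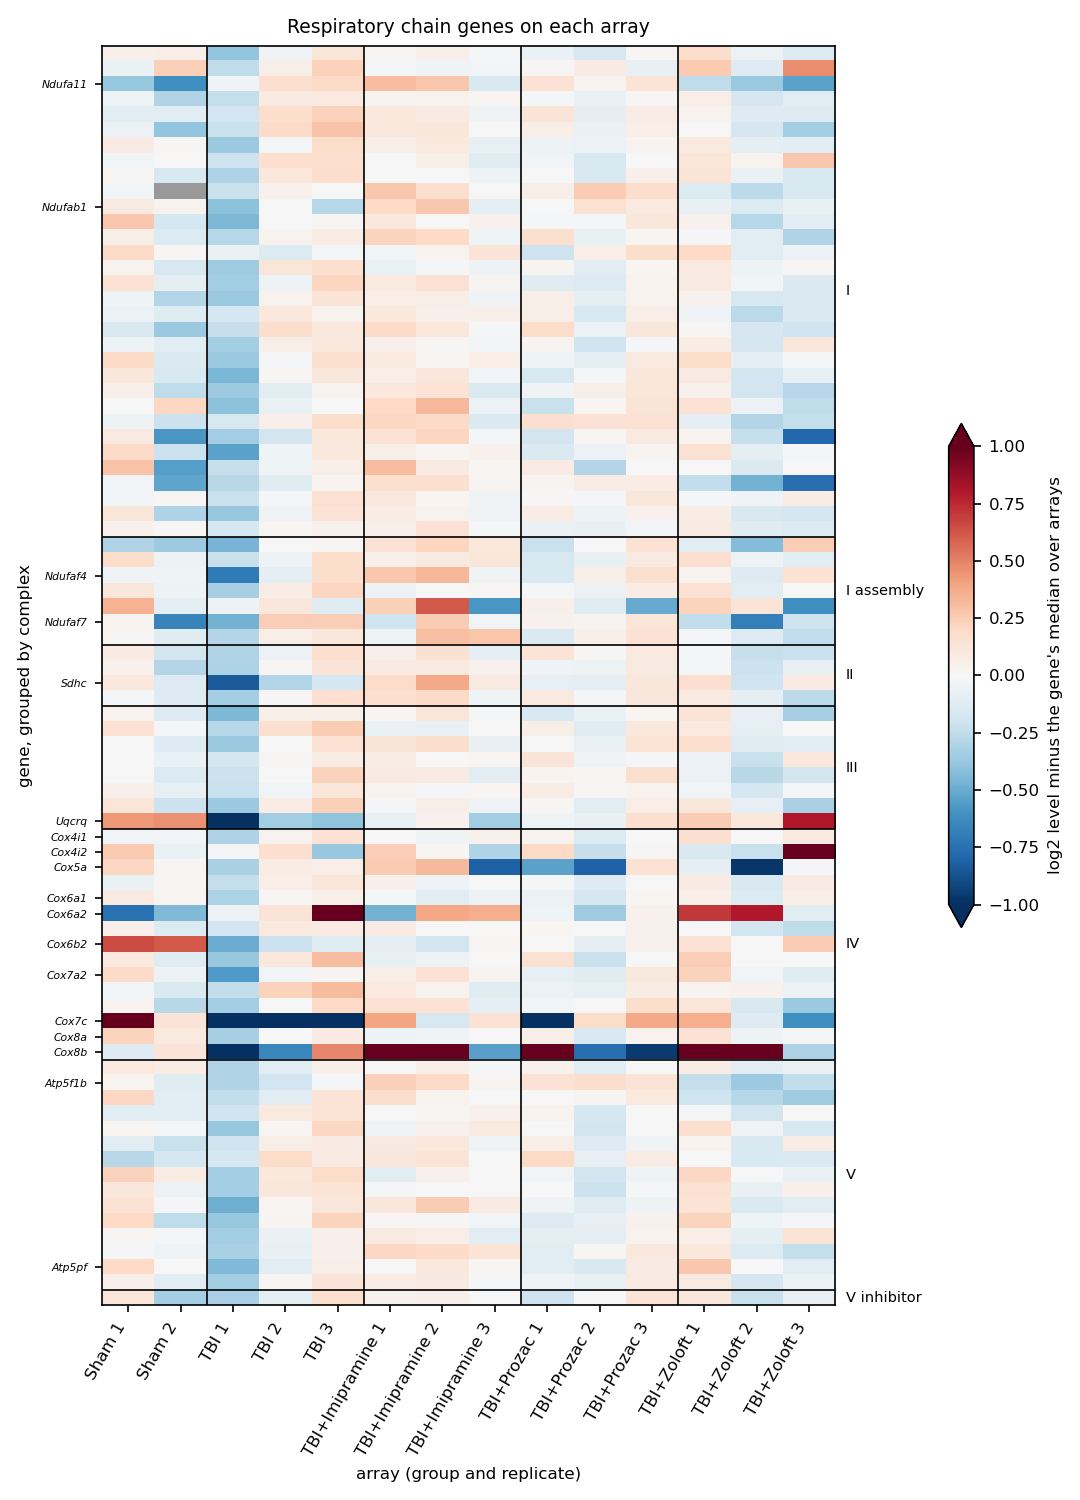
Each of the 82 genes (rows, grouped by complex, with the main genes described in the text labelled) on each of the 14 arrays (columns), coloured by its log2 level minus its own median over the arrays, with colour saturating at 1 and grey for a missing value. TBI replicate 1 is blue over most rows, with 56 of the 82 genes at their lowest there, and the rows with the widest range are Cox8b, Cox7c and Cox6a2 of complex IV.

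Between drug-treated and untreated injured rats, few of the 82 genes passed the test, and few of all kept probes did. In simulated data for TBI+Imipramine vs TBI the fit recovered 54% of changes of 1 on the log2 scale. It recovered 6% of changes of 0.5. In TBI+Imipramine vs TBI none passed, against 2.85% of all kept probes, and 6 had an unadjusted p under 0.05, against 19.7%. In TBI+Prozac vs TBI none passed, against 0.00577%, and 5 had an unadjusted p under 0.05, against 10.1%. The methods' t-test, with no adjustment, gave 3 genes for imipramine (3 higher), 1 for Prozac (1 higher) and 4 for Zoloft (3 higher, 1 lower), against 14.1%, 6.31% and 8.13% of all probes. In TBI+Zoloft vs TBI 1 passed, against 1.38%, and 6 had an unadjusted p under 0.05, against 15.2%. These 3 comparisons share their TBI arrays. With the slide as a block, which rests on TBI+Prozac replicate 1, none of the 82 genes passed for any drug. Of all probes, 0.0115% then passed for imipramine, 0.0404% for Prozac and 0.00577% for Zoloft.

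The scaling left a shift in these comparisons: the median over all kept probes was 0.20 higher in TBI+Imipramine than in TBI, 0.15 higher in TBI+Prozac and 0.01 higher in TBI+Zoloft. Relative to that median, 64 of the 82 genes lay below it for imipramine, 69 for Prozac and 37 for Zoloft. The medians of the 82 genes lay 0.10 below that of all probes for imipramine, 0.09 below for Prozac and 0.01 above for Zoloft.

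Uqcrq, which fell after injury, was -4.79, -4.66 and -5.05 in TBI+Imipramine, -4.75, -4.78 and -4.54 in TBI+Prozac and -4.45, -4.60 and -3.90 in TBI+Zoloft. All 9 drug-treated arrays lay above the TBI arrays, TBI+Imipramine replicate 3 only just, and the TBI+Zoloft arrays spanned the Sham levels. The difference from TBI was 0.51 ± 0.23 (SE) for imipramine (limma adjusted p = 0.24), 0.65 ± 0.23 for Prozac (limma adjusted p = 0.38) and 1.02 ± 0.23 for Zoloft (limma adjusted p = 0.049). The Zoloft call was lost when any 1 of the 6 arrays was left out (0.76 to 1.17, limma adjusted p = 0.052 to 0.15), and under 6 of the 12 other settings.

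Sdhc, the complex II anchor, was 1.31, 1.51 and 1.22 in TBI+Imipramine, 1.05, 1.03 and 1.24 in TBI+Prozac and 1.30, 0.93 and 1.21 in TBI+Zoloft. All arrays of TBI+Imipramine and TBI+Prozac lay above the TBI arrays, and TBI+Zoloft overlapped with them. The difference for imipramine, 0.65 ± 0.18 (SE), had the smallest adjusted p of the 82 genes in that comparison (limma adjusted p = 0.070), and those for Prozac, 0.41, and Zoloft, 0.45, did not pass either.

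Among the other genes with the largest difference of their complex, none passed. For complex I these were Ndufab1, higher by 0.36 in TBI+Imipramine and by 0.32 in TBI+Prozac, and Ndufa11, whose difference was -0.49 in TBI+Zoloft. For complex V they were Atp5f1b, the catalytic beta subunit, at 0.32 in both TBI+Imipramine and TBI+Prozac, and Atp5pf at 0.21 in TBI+Zoloft. For the assembly factors they were Ndufaf4 at 0.40 and 0.23 in the first 2 drugs and Ndufaf7 at -0.38 in TBI+Zoloft. Cox6b2 differed by 0.41 in TBI+Zoloft vs TBI (limma adjusted p = 0.13). Under all 4 other scalings 3 genes, Ndufa11, Cox6b2 and Uqcrq, passed in TBI+Zoloft vs TBI, where 4.57% to 4.76% of all probes did.

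Among the 3 drugs themselves, none of the 82 genes passed a limma F test, against 3.18% of all probes, and 6 had an unadjusted p under 0.05, against 22.5%. The smallest adjusted p-values were those of Atp5f1b (0.065), Ndufs8, an iron-sulfur subunit of complex I (0.073), and Ndufa11 (0.081). Atp5f1b was 1.47, 1.42 and 1.25 in TBI+Imipramine, 1.37, 1.40 and 1.36 in TBI+Prozac and 0.99, 0.87 and 0.98 in TBI+Zoloft, with all Zoloft arrays below the other 6. Ndufs8 was 0.55, 0.56 and 0.42, then 0.42, 0.47 and 0.47, then 0.15, -0.08 and -0.37 in the same order of drugs, again with the Zoloft arrays lowest. Ndufa11 was 2.44, 2.42 and 1.98 in TBI+Imipramine, 2.28, 2.17 and 2.27 in TBI+Prozac and 1.88, 1.77 and 1.60 in TBI+Zoloft. The Zoloft arrays lay below every other injured array for Ndufa11, and the lowest of them lay between the Sham arrays. In the 3 pairs of drugs, with p-values adjusted over probes within a pair, 2 genes passed in TBI+Zoloft vs TBI+Imipramine, against 5.29% of all probes: Atp5f1b (-0.43 ± 0.11 SE, limma adjusted p = 0.047) and Ndufs8 (-0.61 ± 0.16 SE, limma adjusted p = 0.047). None passed in TBI+Prozac vs TBI+Imipramine, against 0.00577%, or in TBI+Zoloft vs TBI+Prozac, against 3.69%. With p-values adjusted over probes and the 3 pairs together, none of the 82 genes passed, against 0.0635% of all probes for TBI+Prozac vs TBI+Imipramine, 2.47% for TBI+Zoloft vs TBI+Imipramine and 2.03% for TBI+Zoloft vs TBI+Prozac. Without adjustment 0, 7 and 6 genes had a p under 0.05, against 6.91%, 23.6% and 21.0% of all probes. The smallest adjusted p was 0.075 for Atp5f1b in TBI+Zoloft vs TBI+Imipramine, and the median of all probes was also 0.18 lower in TBI+Zoloft than in TBI+Imipramine.

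Against Sham, both Ndufa11 and Cox6b2 passed again in 2 of 3 drug groups, and in all 3 every array lay below both Sham arrays for Cox6b2. In TBI+Imipramine vs Sham 2 of the 82 genes passed, against 23.4% of all probes: Ndufa11 was higher by 0.64 ± 0.16 (SE) and Cox6b2 differed by -0.72 ± 0.14 (SE). In TBI+Prozac vs Sham the same 2 passed, against 14.9%, at 0.60 and -0.65. With each of the 5 arrays left out in turn, Cox6b2 passed 5 times for imipramine and 3 for Prozac, where it was lost without either Sham array, and Ndufa11 passed 2 times and 1 time. In TBI+Zoloft vs Sham none passed, against 5.95% of all probes, and 3 had an unadjusted p under 0.05, against 22.3%. There Cox6b2 was 0.01, -0.13 and 0.13, below the Sham levels of 0.52 and 0.48, with a difference of -0.50 (limma adjusted p = 0.059), and Ndufa11 differed by 0.11. These comparisons share their Sham arrays with each other and with TBI vs Sham.

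These counts moved with the scaling. With each array centred on the median of its kept probes, 14 genes passed in TBI+Imipramine vs Sham (1 higher, 13 lower), 14 in TBI+Prozac vs Sham (1 higher, 13 lower) and 1 lower in TBI+Zoloft vs Sham, against 30.9%, 20.7% and 12.2% of all probes. Under that centring TBI vs Sham gave 7 genes (1 higher, 6 lower), and quantile normalization gave 12 (2 higher, 10 lower), against 25.5% and 25.8%. In TBI+Prozac vs Sham 8 genes passed under all 4 other scalings, of which Ndufa11 was the 1 higher, and 11 did so in TBI+Imipramine vs Sham. In TBI+Zoloft vs Sham 1 gene, Cox6b2, did so. Those lower in both TBI+Imipramine and TBI+Prozac included the complex V subunits Atp5f1a, Atp5me and Atp5mf, the complex IV subunits Cox6b2 and Cox8a, Ndufa1 and Uqcrq. Atp5f1a, the catalytic alpha subunit, differed from Sham by -0.34 in TBI+Imipramine with centred arrays, and by -0.07 as scaled in the main comparison.

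Lists of genes around the respiratory chain were read in TBI vs Sham, where 16.6% of all kept probes passed. On the list of electron carriers and ubiquinone synthesis, 3 of 15 measured genes passed: Coq8b (1.04) and Coq4 (0.62), both needed to make ubiquinone, were higher and Coq2, the prenyltransferase of that pathway, was lower (-0.57). Of 28 assembly factors outside the symbol rule, 1 passed, Coa3 of complex IV assembly (-1.15 ± 0.18 SE, limma adjusted p = 0.0017). Of 18 genes of pyruvate dehydrogenase and the tricarboxylic acid cycle none passed. Of 19 genes of glycolysis and glucose uptake 1 passed, the hexokinase Hk1 (-1.11 ± 0.18 SE, limma adjusted p = 0.0017). Of 15 regulators of mitochondrial biogenesis 1 passed, the mitochondrial DNA polymerase Polg (0.62), and of 20 channels, carriers and import genes 2 passed, Phb1 (0.50) and the outer membrane channel Vdac2 (-0.53). The median differences of these 6 lists lay between -0.01 and 0.14, beside 0.00 for all probes. No gene of any list passed in a drug comparison with TBI.

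Markers of other cells in the tissue were read in the same comparison, beside the same 16.6% of all probes. Of 8 microglia and macrophage markers 4 rose after injury, among them Cd68 (1.67), Ptprc (1.55) and Tyrobp (1.22), and their summed scaled signal was 4.58 to 6.71 in Sham and 10.2 to 10.5 in TBI. The astrocyte markers Vim (3.09) and Gfap (1.88) rose, 2 of 7, while the summed scaled signal of the 7 overlapped. It was 24.4 to 28.2 in Sham and 21.1 to 33.3 in TBI. On the blood list S100a8 (3.33) and S100a9 rose, 2 of 4, but the list as a whole did not rise. Its summed scaled signal was 10.2 to 13.9 in Sham and 8.6 to 10.75 in TBI. Of 4 endothelial markers 1 rose, Cldn5 (0.63). Of 9 neuron markers 1, Syt1 (-0.67), fell, and the summed scaled signal of the 9 was 19.9 to 20.7 in Sham and 15.4 to 20.8 in TBI. None of 6 oligodendrocyte markers passed, and their summed scaled signal was 76.4 to 90.1 in Sham and 46.7 to 77.2 in TBI. Neuron and oligodendrocyte markers were well above background on every array, apart from Syt1 on TBI replicate 1. The part of these cells in the respiratory chain levels was not tested.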

How the data were processed

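RNA from 14 hippocampi was hybridised by the authors to Agilent 1-colour arrays. The deposited scanner files hold, per the file headers, Feature Extraction's background-corrected intensity of each spot with its flags, and the deposited series table holds the authors' normalized values. Groups and replicate numbers came from the sample titles. The titles number the samples separately, and p-values measure only the spread between these samples. The miRNA arrays of the series were not used here. Intensities were divided by each array's 75th percentile over probes above background and taken to log2. Control spots and outlier-flagged spots were left out, spots of a probe were averaged, and a probe was kept where well above background on all arrays of 1 group, which left 17322 of 30367. Accessions matched a RefSeq symbol for 11902 kept probes. One limma fit (version 3.58.1, R 4.3.3) over 5 groups gave all comparisons, with Benjamini-Hochberg adjustment over all kept probes and a threshold of 0.05. Named genes were those past the threshold and, in each complex without one, the largest difference, with isoform pairs, pseudogene-like symbols and called list genes. Ndufab1 after injury, Cox5a, Cox6b1, Cox6c, Ttr, Folr1, the F test genes and those named under other scalings were chosen after their values were seen. The members and lists were chosen with earlier results of these data known. Alternatives changed the background correction (normexp with an offset of 50 on median signals), scaling, probe filter, probe averaging, slide and replicate terms, or left out 1 array, and the methods' t-test was run at p 0.05 and 1.2-fold. Tested on simulated data, the fit recovered 35% of changes of 1 on the log2 scale and 2% of changes of 0.5 in TBI vs Sham. Of all calls in that simulated comparison, 11.9% were false, above the 0.05 of the threshold. The number of arrays limits the precision. The values of 1 gene are not reported here.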

Additional observations from a re-analysis of the deposited data

How the results depend on the processing

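Of the comparisons with a count of called genes among the 82, those with Sham moved most with the scaling, and the cause was not tested. In TBI+Zoloft vs TBI, 4 genes passed with the 75th percentile over all probes, against 4.76% of all probes, 4 with the series table's values (4.65%), 4 with centring (4.57%) and 3 with quantile normalization (4.64%). For TBI+Imipramine, TBI+Prozac and TBI+Zoloft vs Sham, the 75th percentile over all probes gave 14, 12 and 1 (30.4%, 20.5% and 12.2% of all probes), the series table's values 14, 12 and 1 (30.2%, 20.1% and 12%), centring 14, 14 and 1 (30.9%, 20.7% and 12.2%) and quantile normalization 12, 9 and 4 (30%, 18.9% and 12.6%). In TBI vs Sham centring gave 7 (25.5%) and quantile normalization 12 (25.8%). Normexp gave 1 in TBI+Imipramine vs TBI (2.1%), 0 in TBI+Zoloft vs TBI (1.37%) and 1 in TBI+Zoloft vs Sham (3.94%). With no filter on dim probes TBI+Zoloft vs TBI had 0 (0.0727%) and TBI+Prozac vs Sham 1 (4.95%). Where a probe had to be above background on every array, TBI vs Sham had 2 (15.4%), since Uqcrq and Cox7c are then not tested, and TBI+Zoloft vs TBI 0 (1.39%). TBI+Zoloft vs TBI also had 0 with outlier-flagged spots kept (1.35%) and with the slide as a block (0.00577%). With the slide as a random block TBI+Imipramine vs TBI had 2 (5.76%) and TBI+Zoloft vs Sham 1 (8.46%). The methods' t-test without adjustment gave 3, 1 and 4 for the drugs vs TBI (14.1%, 6.31% and 8.13%) and 5, 4 and 1 for the drugs vs Sham (32.9%, 23.9% and 13.2%). After Benjamini-Hochberg it gave 0 in TBI vs Sham (0%), TBI+Zoloft vs TBI (0%) and TBI+Prozac vs Sham (0.00579%). Leaving out 1 array gave 1 to 4 genes in TBI vs Sham, 0 to 1 in TBI+Imipramine vs TBI, 0 to 0 in TBI+Zoloft vs TBI, 1 to 3 in TBI+Imipramine vs Sham, 0 to 2 in TBI+Prozac vs Sham and 0 to 1 in the F test among drugs.

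The replicate numbers do not pair the arrays: over 26 same-number pairs the correlation of deviations ran from -0.23 to 0.23. The replicate block gave 0 genes in TBI+Zoloft vs TBI (1.45% of all probes).

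Some differences that did not pass changed sign, and the cause was not tested. The mean of a gene's probes gave -0.19 for Ndufaf7 and 0.0617 for Cox7a2 in TBI vs Sham, and centring gave -0.000431 for Ndufa10l1. With the slide as a block Cox7c in TBI+Prozac vs TBI was -0.0522. With 1 array left out, the TBI vs Sham difference ranged from -0.0277 to 0.67 for Ndufaf7, -0.0368 to 0.16 for Ndufa10l1 and -0.11 to 0.12 for Cox4i1, and that of Ndufaf4 in TBI+Prozac vs TBI from -0.0231 to 0.42.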
